A study of Mus musculus with 6 samples.

Results

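The 10 genes described here encode the receptors for sphingosine 1-phosphate (S1P) and the proteins that make, export and break down this lipid. They are the rows of the deposited count table whose gene name is S1pr1, S1pr2, S1pr3, S1pr4, S1pr5, Sphk1, Sphk2, Spns2, Sgpl1 or Sgpp1. All 10 were found among 54532 named genes, and 9 of them were among the 15225 genes with enough counts to be tested. They were measured by RNA sequencing of polyadenylated RNA in whole mouse kidney, in 3 libraries labelled WT and 3 labelled Lpar3-/-. The second genotype is described as lacking a receptor for lysophosphatidic acid (LPA), another signalling lipid. Every mouse had been kept at 8% oxygen for 12 h at normal pressure, so the values compare genotypes under systemic hypoxia and show no response to hypoxia itself. The labels give neither the way the Lpar3 allele was made nor the age, sex or strain of the mice, and they do not say whether each library is a separate mouse, so a p-value here reflects the spread between libraries, part of which may be technical.

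S1P is made inside cells when sphingosine kinases phosphorylate sphingosine, and it leaves endothelial cells through the transporter Spns2. Outside the cell it acts through G protein-coupled receptors that belong to the same receptor family as several of those for LPA. It keeps the endothelium tight, sets vessel tone and guides lymphocytes out of tissues into blood and lymph. Inside the cell a phosphatase returns S1P to sphingosine, while a lyase cleaves it for good. The lyase and the phosphatase therefore set how long the signal lasts.

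Libraries held 15953794 to 17940438 counts in named genes. Lpar3 itself had 577 to 645 counts in WT and 580 to 672 in the libraries labelled Lpar3-/- (log2 fold change 0.0033, 95% interval -0.17 to 0.18), so gene counts did not tell the genotypes apart and every direction below rests on the labels. Epo, the erythropoietin gene named in the title of the series, had 57 to 69 counts in WT and 15 to 20 in the other group, 3.42-fold lower ( edgeR adjusted p = 0.0136). The tissue matched its label: all 8 markers of kidney epithelium and podocytes were detected, led by Slc34a1 (2612 ± 96.6 CPM in WT) and Umod (2342 ± 147 CPM; SD, n = 3). CPM are counts scaled to one common library total. WT replicate 2 had the highest summed level of fibroblast (290.2 CPM), macrophage (120.1 CPM) and lymphocyte (8.17 CPM) markers of the 6 libraries. The same held for smooth muscle, natural killer cell and erythroid markers. It was not highest in endothelial (670.4 CPM) or adipocyte (189.3 CPM) markers, and was lowest in those of lymphatic endothelium (29.9 CPM). WT replicate 1 had a smaller chi-square distance to each library labelled Lpar3-/- (8.34 to 9.57 per degree of freedom) than to WT replicates 2 and 3 (13.9 and 13.0). Each library was left out in turn, and the values without it are given where they matter.

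None of the 9 genes tested differed between the genotypes at an adjusted p under 0.05 (edgeR quasi-likelihood test, Benjamini-Hochberg over all genes tested). The background was 57 of 15225 genes, or 0.374%. DESeq2 and limma-voom also called 0, and 1 gene, Sgpp1, had an unadjusted p under 0.05 by each of the 3 tools, where 9.18% of all genes tested had one in edgeR (5.21% lower and 3.97% higher in the group labelled Lpar3-/-). In 2 of the 9, S1pr3 and Sgpp1, every WT library lay above every library labelled Lpar3-/-. Groups did not overlap in 13.7% of all genes tested, and in 7.12% WT was the higher group, as here. Of the 9 fold changes 6 were negative, where 7780 of all 15225 genes tested had a negative one. The median log2 of the 9 was -0.16, against a median of -0.0036 over all genes.

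**Figure D1:**
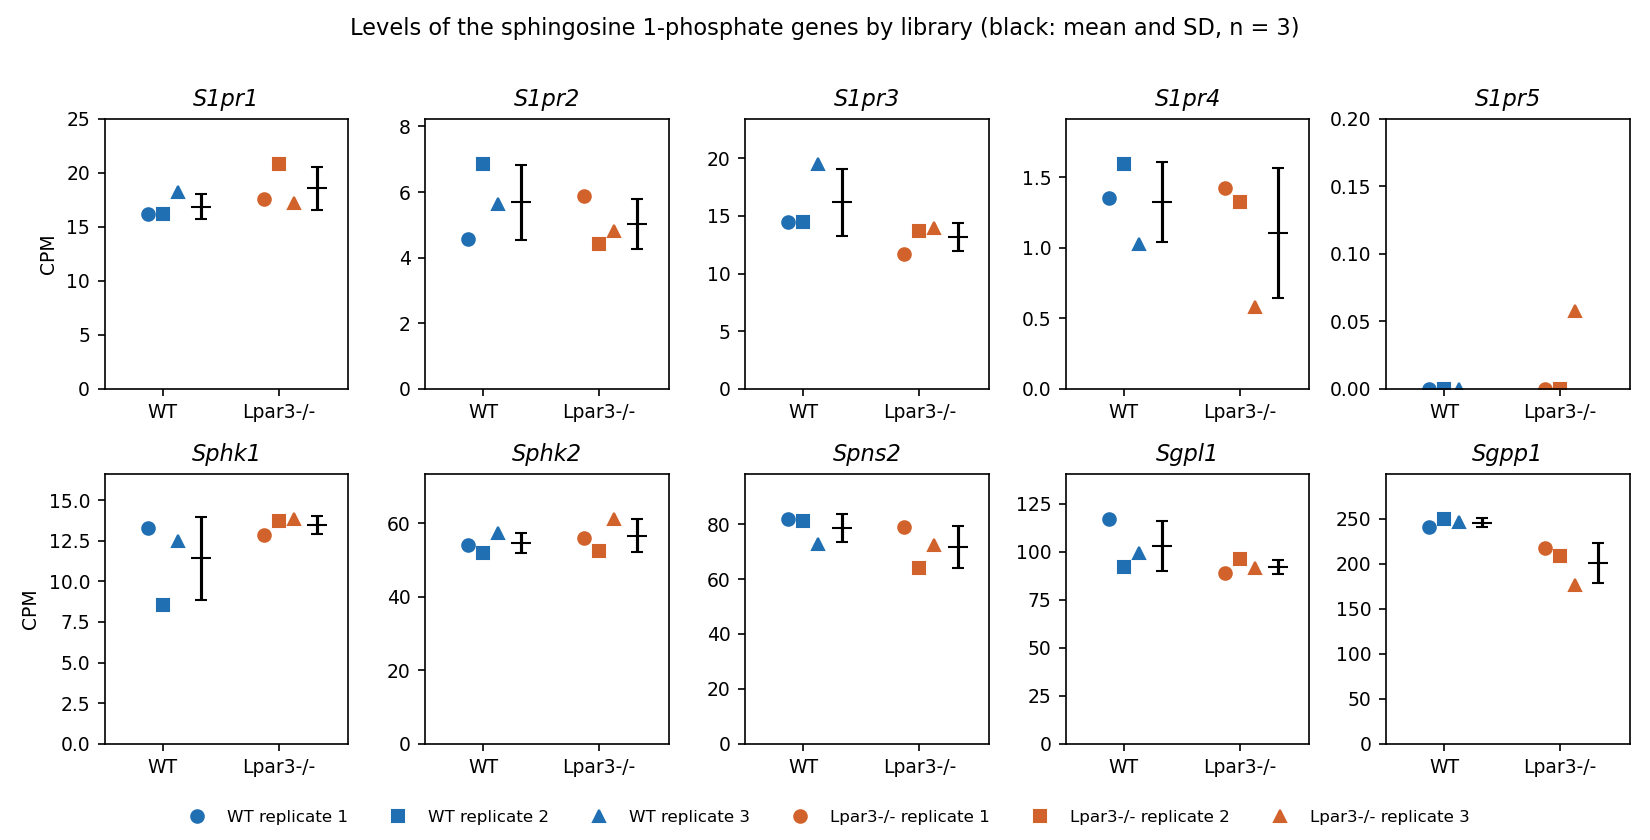
Level of each S1P gene in CPM (vertical axis, from 0 and scaled separately for each gene) in the 3 libraries labelled WT (blue) and the 3 labelled Lpar3-/- (orange). Symbols mark the replicate, and black bars give the mean and SD. The groups are apart for S1pr3 and Sgpp1, and overlap for the other genes with more than 1 count.

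Levels per gene length were compared on the deposited FPKM, fragments scaled to gene length and library size. Sgpp1 was the most abundant of the 10, at 39.2 ± 4.95 FPKM (SD over the 6 libraries), and stood above 91.4% of the genes tested. Spns2 (18.3 ± 1.69 FPKM), Sgpl1 (15.8 ± 1.65 FPKM) and Sphk2 (13.3 ± 0.815 FPKM) followed. Neighbours among these 3 had overlapping ranges over the 6 libraries, although Sgpl1 exceeded Sphk2 in 6 of 6 libraries and Spns2 exceeded Sgpl1 in 5. The enzymes and the exporter were thus more abundant than any receptor, with Sphk1 as the exception.

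S1pr1 was the most abundant receptor, at 5.77 ± 0.564 FPKM, and its range lay below that of Sphk2 and above that of S1pr3. S1pr3 had 3.26 ± 0.567 FPKM and Sphk1 2.59 ± 0.414 FPKM, with overlapping ranges. S1pr2 (0.667 ± 0.118 FPKM) and S1pr4 (0.506 ± 0.152 FPKM) also overlapped and stood above only 15.3% and 11.9% of the genes tested. S1pr5 was at 0 in 5 libraries. The order of these levels is a description, since the length the authors divided by is one value per gene, whichever transcripts were present.

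**Figure D2:**
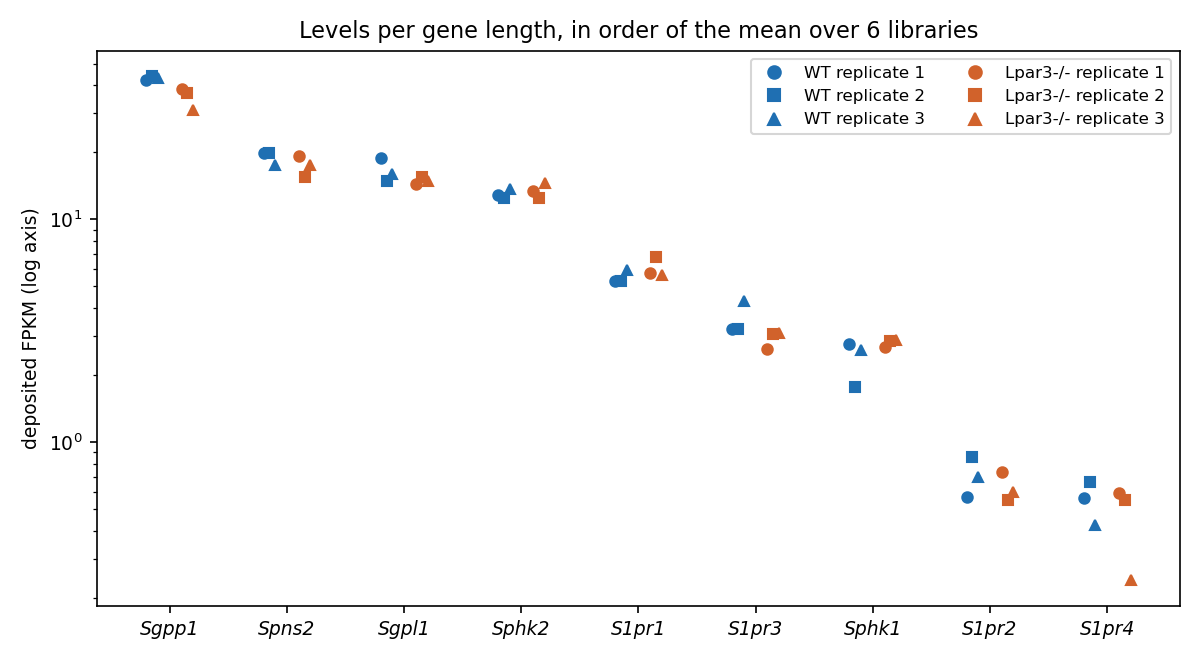
Deposited FPKM (log axis) of 9 S1P genes in each library, ordered by their mean over the 6 libraries, with WT in blue and the libraries labelled Lpar3-/- in orange. S1pr5, listed at 0 in 5 libraries, is not drawn. Sgpp1 lies between 30.9 and 44.0 FPKM, and the highest value of S1pr2 or S1pr4 in any library is 0.856 FPKM.

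Among the receptors, S1pr1 encodes the Gi-coupled receptor that holds endothelial junctions together and lets lymphocytes leave tissues. It had 16.2, 16.2 and 18.2 CPM in WT replicates 1 to 3 and 17.6, 20.8 and 17.2 CPM in the libraries labelled Lpar3-/-. The groups overlapped, and the highest value was that of labelled Lpar3-/- replicate 2. Its log2 fold change was 0.14 (SE 0.11, 95% interval -0.11 to 0.38, edgeR adjusted p = 0.797), and without that library 0.046. In fold terms the interval ran from 0.926 to 1.30, so a change beyond 1.30-fold upward lay outside it. Endothelial markers, the 10 genes listed for the cell type in which this receptor is best known, had a summed level of 670.4 to 704.7 CPM in WT and 653.0 to 707.0 CPM in the libraries labelled Lpar3-/-, with 4 of 10 fold changes positive. S1pr1 lies on the chromosome of Lpar3, 30.5 Mb from it (GRCm38 chromosome 3, 115710433 to 115715072, minus strand), and none of its exons overlaps another gene.

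S1pr3 encodes a receptor that couples to several G proteins and acts in vessel tone, in smooth muscle and in endothelium. Its levels were 14.5, 14.5 and 19.5 CPM in WT and 11.7, 13.7 and 14.0 CPM in the libraries labelled Lpar3-/-. The groups did not overlap, but only 0.51 CPM separated the lowest WT library from the highest labelled Lpar3-/-, and WT replicate 3 was far above the other two. The means of 16.2 ± 2.91 and 13.1 ± 1.23 CPM (SD, n = 3 each) gave a log2 fold change of -0.30 (SE 0.14, 95% interval -0.61 to 0.012), which did not pass the test (edgeR unadjusted p = 0.0584, adjusted p = 0.566). Without WT replicate 3 the log2 fold change was -0.14. In the annotation (chromosome 13, 51408639 to 51422797, plus strand) an exon of S1pr3 overlaps one of Gm32834 on the other strand.

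Markers of vessel walls and of the interstitium were set beside S1pr3. The 10 endothelial markers, summed above, had a median log2 fold change of -0.024. Among smooth muscle and pericyte markers all 8 were negative, with a median log2 of -0.28, and a summed level of 205.1 to 241.1 CPM in WT against 197.7 to 210.2 CPM. Of the 6 fibroblast markers 5 were negative (157.7 to 290.2 against 172.9 to 189.7 CPM). None of these markers was at 0 or passed the test over all genes, and both sums overlapped between the groups. Groups did not overlap in 2 of the 8 smooth muscle and pericyte markers, Acta2 and Notch3, which were lower in the libraries labelled Lpar3-/-. The same held for 1 of the 10 endothelial and 0 of the 6 fibroblast markers, against 7.12% of all genes tested. Acta2 and Notch3 are named after their values were seen. In whole kidney, fewer cells of a type and less RNA per cell cannot be told apart, and the part these cells have in the S1pr3 values was not tested.

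S1pr2 encodes a receptor that couples to G12 and G13 and restrains cell migration. It was low, at 4.57, 6.86 and 5.62 CPM in WT and 5.87, 4.41 and 4.80 CPM in the libraries labelled Lpar3-/-. The groups overlapped, with a log2 fold change of -0.18 (95% interval -0.62 to 0.27, edgeR adjusted p = 0.871), which without WT replicate 2 was -0.017. S1pr4, a receptor of white blood cells, had 24, 27 and 17 counts in WT and 25, 21 and 10 in the libraries labelled Lpar3-/-. At such counts its interval was the widest of the 9 (log2 fold change -0.26, 95% interval -1.12 to 0.60, edgeR adjusted p = 0.907), and without labelled Lpar3-/- replicate 3 the sign turned, to 0.052. The 9 lymphocyte markers summed to 3.39 to 8.17 CPM in WT and 2.05 to 3.64 CPM in the other group, and their part in the S1pr4 values was not tested.

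S1pr5, known from natural killer cells and from the myelin-forming cells of the brain, had 0 counts in every library but labelled Lpar3-/- replicate 3, which had 1. It was not tested, and no fold change is given. A count of 0 allows up to 3 counts, or 0.169 to 0.189 CPM in a library, a limit that covers counting error only. The 5 natural killer cell markers were low, with at most 14 counts for any of them in a library. They summed to 1.57 to 2.13 CPM in WT and to 0.342 to 1.10 CPM in the libraries labelled Lpar3-/-, without overlap, led by Prf1 (12, 6 and 12 against 3, 4 and 3 counts) and Nkg7 (9, 14 and 11 against 1, 2 and 5 counts).

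The make-up of receptor mRNA was described as the share of each gene in the summed FPKM of the 5 receptors, with no test. The sum itself overlapped between the groups (10.3 ± 0.901 FPKM in WT, 10.1 ± 0.766 FPKM in the libraries labelled Lpar3-/-). S1pr1 made up 54.8%, 52.7% and 52.0% in WT and 59.3%, 62.1% and 58.6% in the libraries labelled Lpar3-/-. These ranges did not overlap, but the FPKM of S1pr1 itself did, and a share also depends on the levels of the other receptors. S1pr3 made up 33.5%, 32.2% and 38.1% in WT and 27.0%, 27.9% and 32.5% in the others, where labelled Lpar3-/- replicate 3 lay just above WT replicate 2. The FPKM ratio of S1pr1 to S1pr3 was 1.37 to 1.64 in WT and 1.80 to 2.22 in the libraries labelled Lpar3-/-. Since this pair was singled out after its values were seen and neither gene passed the test alone, the ratio is given without one. Over the libraries S1pr2 held 5.02% to 8.52% and S1pr4 2.51% to 6.63%.

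**Figure D3:**
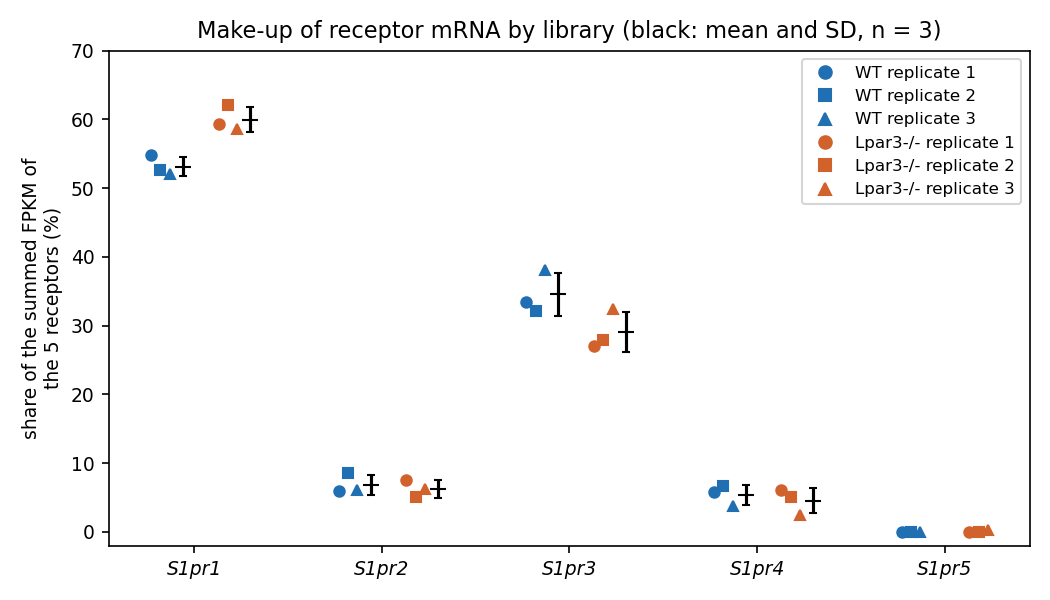
Share of each receptor gene in the summed FPKM of the 5 receptors (vertical axis, percent) by library, with WT in blue, the libraries labelled Lpar3-/- in orange, and the mean and SD in black. S1pr1 holds 52.0% to 54.8% in WT and 58.6% to 62.1% in the libraries labelled Lpar3-/-.

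Neither sphingosine kinase passed the test. Sphk1, the inducible cytosolic sphingosine kinase, had 13.3, 8.52 and 12.5 CPM in WT and 12.9, 13.7 and 13.9 CPM in the libraries labelled Lpar3-/-. WT replicate 2 was lowest, the other 5 libraries lay close together, and the groups overlapped. Sphk1 had a log2 fold change of 0.24 (SE 0.16, 95% interval -0.11 to 0.59, edgeR adjusted p = 0.728) and without WT replicate 2 it was 0.065. An exon of Sphk1 overlaps the antisense gene Gm29292.

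Sphk2, the isoform found in the nucleus and mitochondria, was 5.65 ± 1.21 times as abundant as Sphk1 in WT and 4.82 ± 0.379 times in the other group by FPKM. This ratio overlapped between the groups and was highest in WT replicate 2 (7.01), the library lowest in Sphk1. Sphk2 had 54.2, 52.0 and 57.5 CPM in WT and 56.0, 52.4 and 61.3 CPM in the libraries labelled Lpar3-/-. The groups overlapped, and with a log2 fold change of 0.053 its 95% interval ran from -0.12 to 0.23 (edgeR adjusted p = 0.905). This was the narrowest interval of the 9, and it leaves out changes beyond 1.17-fold upward or to below 0.920 of the WT level. Exons of Sphk2 overlap those of Dbp and Rpl18 on the other strand (chromosome 7, 45709467 to 45718002). Reads there cannot be assigned without strand, and the strand setting is not given in the sources used here. Dbp, a clock output gene, had 17.0 ± 14.5 CPM in WT and 8.25 ± 2.94 CPM in the libraries labelled Lpar3-/-.

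Spns2, the S1P exporter of endothelium, had 82.0, 81.1 and 72.7 CPM in WT and 78.9, 63.9 and 72.3 CPM in the libraries labelled Lpar3-/-. The groups overlapped, with labelled Lpar3-/- replicate 2 lowest. Its log2 fold change was -0.13 (SE 0.087, 95% interval -0.32 to 0.057, edgeR adjusted p = 0.722), and without that library it was -0.055. An exon of Spns2 overlaps one of Mybbp1a on the other strand.

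Of the genes that remove S1P, Sgpl1 encodes the lyase that cleaves it irreversibly into hexadecenal and phosphoethanolamine. It had 117.2, 91.9 and 99.5 CPM in WT and 88.7, 96.1 and 91.7 CPM in the libraries labelled Lpar3-/-. WT replicate 1 was highest and the remaining libraries of both groups were interleaved. Sgpl1 had a log2 fold change of -0.16 (SE 0.088, 95% interval -0.35 to 0.034, edgeR adjusted p = 0.651), and without WT replicate 1 it was -0.054.

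Sgpp1 encodes the phosphatase of the endoplasmic reticulum that turns S1P back into sphingosine, and it had the lowest p of the 9. Its levels were 240.4, 249.9 and 246.2 CPM in WT and 217.8, 208.8 and 175.9 CPM in the libraries labelled Lpar3-/-. Every WT library was above every library of the other group, the WT values spanned 9.54 CPM, and labelled Lpar3-/- replicate 3 was the lowest. The means of 245.5 ± 4.81 and 200.8 ± 22.1 CPM (SD, n = 3 each) made it 1.22-fold lower, with a log2 fold change of -0.29 (SE 0.084, 95% interval -0.47 to -0.11). Its unadjusted p of 0.00493 was number 298 in the order of the 15225 genes, and its adjusted p was 0.252, so it did not pass (edgeR quasi-likelihood). DESeq2 gave an adjusted p of 0.0823. It passed only in edgeR with no filter on low counts (adjusted p = 0.0282), a setting that called 520 of 26645 genes, and over all 17 alternatives its adjusted p ran from 0.0282 to 0.754. Without any one library the log2 fold change stayed between -0.35 and -0.20. The gene lies at chromosome 12, 75714249 to 75735729, on the minus strand, and no exon of another gene overlaps its exons.

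The groups were also apart in 3 marker lists, though not all in the direction of Sgpp1. The list of natural killer cells above was 1 of them. The 8 markers of kidney epithelium and podocytes summed to 8424 to 8734 CPM in WT and 9054 to 9486 CPM in the libraries labelled Lpar3-/-. The direction of this sum was opposite to that of Sgpp1. The 7 macrophage markers summed to 94.1 to 120.1 CPM against 82.6 to 88.4 CPM. Highest in level were Csf1r (51.1 ± 5.52 against 49.5 ± 1.09 CPM) and C1qa (16.2 ± 2.67 against 11.1 ± 0.359 CPM). The groups overlapped for Csf1r and were apart for C1qa. None of the markers was at 0 in every library. Adipocyte markers had larger differences: all 5 fold changes were negative, with a median log2 of -1.49, and in 3 of the 5 the groups did not overlap. These were Adipoq (10.1 ± 4.09 against 3.63 ± 1.87 CPM), Plin1 (8.19 ± 2.42 against 2.90 ± 1.31 CPM) and Cidec, which was 3.43-fold lower and had the lowest edgeR adjusted p of the list, 0.0525, so none passed the test. These 3 are named after their values were seen. The summed level of the list, most of it Fabp4, overlapped at 148.0 to 265.3 against 114.0 to 167.2 CPM, and that of erythroid markers at 341.8 to 625.6 against 318.8 to 563.3 CPM. Their part in the Sgpp1 values was not tested.

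The promoters of Sgpp1 and S1pr3, the 2 members whose groups were apart, are shown for context, as the tissue was hypoxic and the search was for the core of the hypoxia response element. Each runs from 250 bases before to 50 after the start site, 5′ to 3′ on the gene's strand, from RefSeq on GRCm38.p6. Capitals mark ACGTG or GCGTG on either strand (so also CACGT or CACGC).
Sgpp1: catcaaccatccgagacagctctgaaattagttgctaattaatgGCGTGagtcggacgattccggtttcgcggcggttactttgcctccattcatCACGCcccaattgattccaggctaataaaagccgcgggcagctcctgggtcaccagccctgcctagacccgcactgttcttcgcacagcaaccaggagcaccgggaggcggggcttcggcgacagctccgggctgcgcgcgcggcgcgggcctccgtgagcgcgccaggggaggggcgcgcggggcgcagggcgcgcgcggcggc
S1pr3: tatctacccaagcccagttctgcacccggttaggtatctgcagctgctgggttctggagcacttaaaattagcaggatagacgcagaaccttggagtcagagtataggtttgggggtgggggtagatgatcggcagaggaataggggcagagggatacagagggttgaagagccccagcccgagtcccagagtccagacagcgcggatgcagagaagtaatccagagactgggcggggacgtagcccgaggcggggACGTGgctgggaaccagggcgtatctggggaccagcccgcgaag
The Sgpp1 window is chr12:75735680-75735979 on the minus strand and holds GCGTG at base -206, counted from the start site, and its reverse complement at -155. The S1pr3 window is chr13:51408368-51408667 on the plus strand and holds ACGTG at base 7 after the start. Promoters were listed for 9 of the 10 members, all but S1pr1, and 11 of their 14 windows (78.6%) held such a core. Of these windows 5 belong to Sphk1, and some overlap. Over all 32851 promoters of the same length 43.8% held one, and the median GC content was 52.7% against 58.5% in the members' windows. The matching letters are a description and say nothing about binding.

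**Figure D4:**
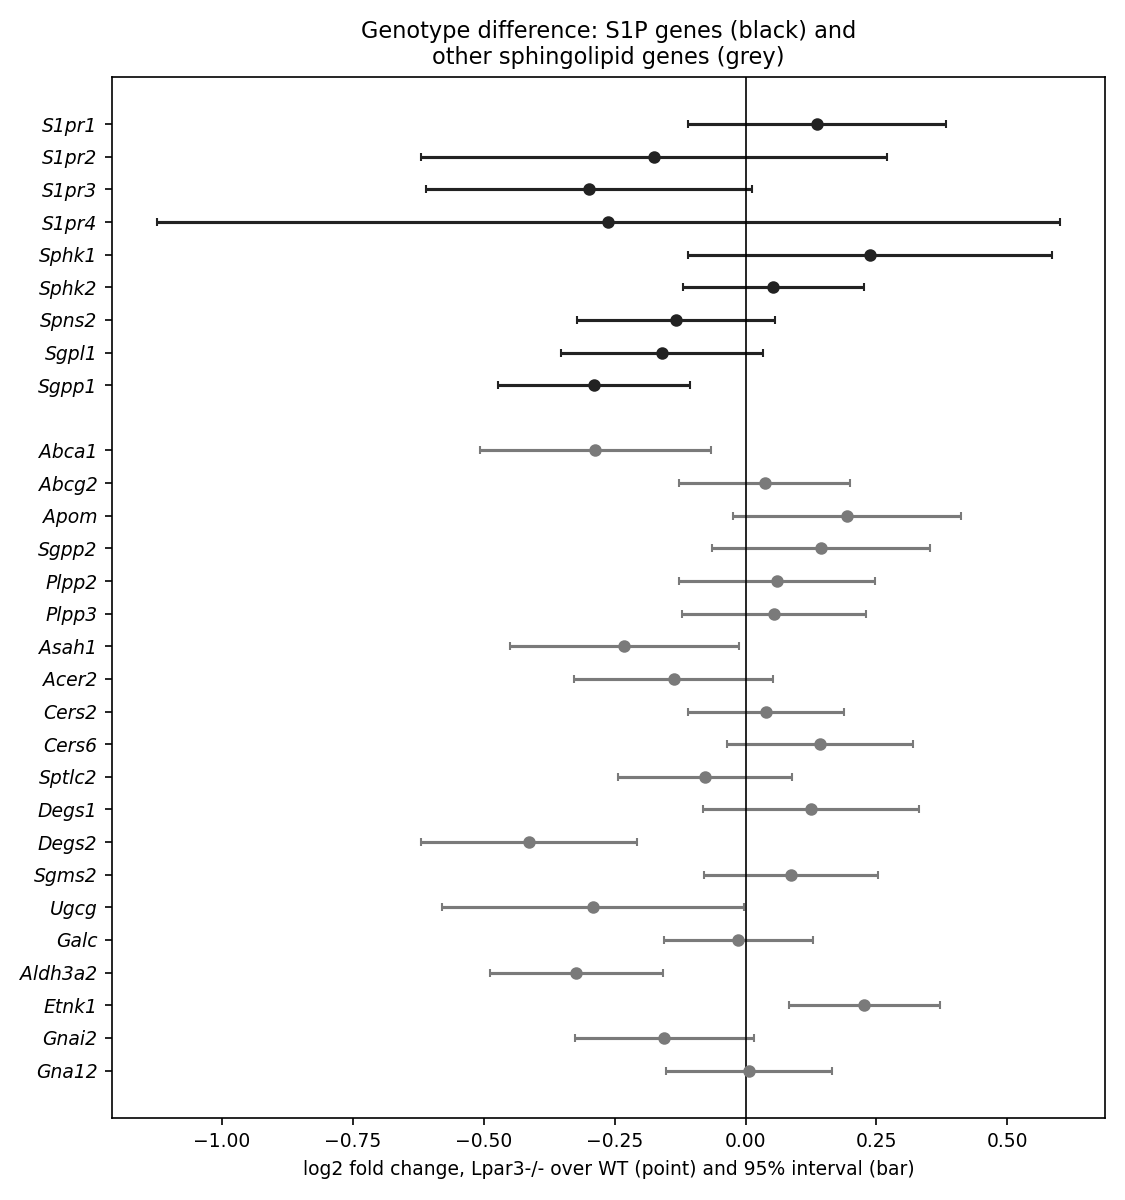
Log2 fold change of the libraries labelled Lpar3-/- over WT (horizontal axis, point) with its 95% interval (bar) for the 9 S1P genes tested (black) and 20 other sphingolipid genes (grey). Intervals of 8 of the S1P genes span 0, and that of Sgpp1 runs from -0.47 to -0.11.

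Other genes of sphingolipid metabolism and S1P signalling did not pass the test either. Of 52 listed, 50 were tested, 26 had a positive and 24 a negative fold change, and the median log2 was 0.0052. EdgeR called 0, limma-voom 0 and DESeq2 2, and 7 had an unadjusted p under 0.05, 2 with a positive and 5 with a negative fold change. In 5 of the 50 the groups did not overlap. Over all genes tested 9.18% had an unadjusted p under 0.05 and 13.7% had groups that did not overlap, and DESeq2 called 171 of 15902 genes.

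Among the genes next to the lyase, Aldh3a2 encodes the dehydrogenase that oxidises the hexadecenal it releases. Aldh3a2 had 293.5 ± 19.1 CPM in WT and 234.6 ± 12.4 CPM in the libraries labelled Lpar3-/- (log2 fold change -0.32, SE 0.076, edgeR adjusted p = 0.115). Etnk1, a kinase that makes phosphoethanolamine, the other lyase product, had 251.7 ± 7.92 and 294.6 ± 3.64 CPM (0.23, SE 0.066, edgeR adjusted p = 0.252). Their groups did not overlap, in opposite directions. Degs2, whose hydroxylase activity makes phytoceramides, had 74.4 ± 9.99 and 55.8 ± 2.55 CPM, also without overlap (-0.41, SE 0.095, edgeR adjusted p = 0.103). Aldh3a2 and Degs2 were the 2 genes DESeq2 called (adjusted p = 0.00776 and 0.0212). EdgeR called both without WT replicate 1, with adjusted p of 0.0493 and 0.0104, in a fit that called 149 of 15595 genes. It called neither when any other single library was left out. With no filter on low counts edgeR also called both (adjusted p = 0.00771 and 0.000234), in a fit that called 520 of 26645 genes.

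Enzymes that supply sphingosine and neighbouring lipids did not pass the test. The ceramidase genes Asah1, of the lysosome, and Acer2, of the Golgi, had log2 fold changes of -0.23 (SE 0.10) and -0.14 (SE 0.087). Of the ceramide synthases, Cers2 had 0.039 (SE 0.068) and Cers6 0.14 (SE 0.081). In de novo synthesis, Sptlc2, a subunit of the first enzyme, serine palmitoyltransferase, had -0.077 (SE 0.076) and Degs1, the desaturase of the last step to ceramide, 0.13 (SE 0.095). In complex sphingolipids, Sgms2, a sphingomyelin synthase, had 0.087 (SE 0.076), Galc, a lysosomal galactosidase, -0.014 (SE 0.065), and Ugcg, which makes glucosylceramide, -0.29 (SE 0.13). The lowest adjusted p of these 9 was 0.513, for Asah1 (edgeR).

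Carriers, other phosphatases and G proteins did not pass either. Apom, the apolipoprotein that carries S1P in plasma, had 78.5 ± 12.2 CPM in WT and 89.8 ± 4.88 CPM in the libraries labelled Lpar3-/- (log2 fold change 0.19, SE 0.10, edgeR adjusted p = 0.609). The transporters Abca1 and Abcg2 had log2 fold changes of -0.29 (SE 0.10) and 0.036 (SE 0.075). Sgpp2, the second S1P phosphatase, had 27.7 ± 2.78 and 30.6 ± 1.99 CPM, a fold change opposite in sign to that of Sgpp1 (0.14, SE 0.095, edgeR adjusted p = 0.724). The difference between these 2 was not tested. Plpp2 and Plpp3, surface phosphatases that act on S1P and LPA, had 0.061 (SE 0.086) and 0.054 (SE 0.080). Of the G proteins the receptors use, Gnai2 had -0.16 (SE 0.078) and Gna12 0.0070 (SE 0.073).

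Across the 6 libraries, the genes whose log2 CPM followed each S1P gene most closely were sought among up to 9530 genes with a mean of at least 10 CPM. The Pearson r of the 2 nearest ran from 0.971 to 0.997, which is a description, since the best of so many genes over 6 libraries is high for almost any pattern. For S1pr1 they were Klc2 and Gpr146, for S1pr2 Lmna and Tuba1a, for S1pr3 Ahnak and Eml5, and for S1pr4 Pdzd3 and Spata6. For the enzymes they were Dcaf8 and mt-Atp6 (Sphk1), Gatad2b and Trappc10 (Sphk2), Thoc3 and Rhod (Sgpl1), and Trim8 and Lipe (Sgpp1), and for Spns2 they were Klhl25 and Arpin. No gene was nearest to more than 1 of the 9.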

How the data were processed

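Polyadenylated RNA of 6 hypoxic mouse kidney libraries was sequenced, 3 per genotype. The deposited counts are whole reads per gene, not normalized. The deposited FPKM are the authors' values per gene length and library size. HISAT2 2.0.5, featureCounts 1.5.0-p3, DESeq2 1.20.0 and GRCm38 are named per the submitters' processing notes. Not given in the sources used here are strand setting and annotation release. Coordinates of the S1P genes equalled those of GENCODE M21, and other genes were not compared.

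Rows without a gene name (377 of 54909, 0.259% to 0.362% of counts) were left out. Counts were fitted over the whole table with edgeR 4.0.16 in R 4.3.3 (default expression filter, TMM, quasi-likelihood F-test, no covariate). Genes were called at an adjusted p under 0.05. CPM use TMM-scaled library sizes. The SE is the log2 fold change over the root of F. The replicate coefficient of variation was 10.5%.

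The members and gene lists were chosen with earlier results of these data known. Named were all members, Lpar3 and Epo, per role of the wider list the 2 genes highest in CPM and that with the lowest p, the 2 genes most like each member by r (on log2 of CPM + 0.5), and the 2 highest markers of lists whose groups did not overlap. Marker lists covered endothelium, lymphatic endothelium (29.9 to 34.9 CPM in WT, 31.6 to 36.1 CPM in the others), smooth muscle, fibroblasts, lymphocytes, natural killer cells, macrophages, erythroid cells, adipocytes and kidney epithelium. Alternatives were DESeq2 1.42.0, limma-voom (limma 3.58.1), RLE or upper quartile normalization, no filter, a stricter filter (10 counts in 3 libraries and a mean of 1 CPM), a replicate block, unnamed rows kept, each library left out, and limma with a mean-variance trend on log2(FPKM + 1) or log2(FPKM + 0.1), for a mean FPKM of at least 0.1 or above 0. Intervals are 95% intervals.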

Additional observations from a re-analysis of the deposited data

How the results depend on the processing

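No S1P gene passed in any fit except Sgpp1 with no filter on low counts (1 gene called, log2 fold change -0.29). Of 153 refitted fold changes of the 9 genes, 150 kept their direction and their side of the threshold. Those of S1pr4 (0.052) and Sphk2 (-0.0054) turned sign without labelled Lpar3-/- replicate 3, both from values within their errors, and with a library left out they ran from -0.49 to 0.052 and from -0.0054 to 0.11. The wider list had 2 calls with DESeq2 and 2 with no filter, against 0, and 0 to 2 without a single library. Over all genes the count of 57 was 171 with DESeq2, 520 with no filter, 9 with limma on log2(FPKM + 1), 13 on log2(FPKM + 0.1) and 4 on log2(FPKM + 1) with every mean FPKM above 0, and the cause was not tested. It ran from 12 to 149 with a library left out. The lowest count came without labelled Lpar3-/- replicate 1 or 3, the next, 26, without replicate 2 of that group, and the highest without WT replicate 1.

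With CPM, which keep the weight of gene length, in place of FPKM, the receptor shares in WT were 42.2% for S1pr1, 14.2% for S1pr2, 40.2% for S1pr3 and 3.36% for S1pr4. In the libraries labelled Lpar3-/- they were 48.9% for S1pr1, 13.3% for S1pr2 and 34.8% for S1pr3.

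The labels do not say whether libraries of the same replicate number belong together across groups. Deviations of same-numbered libraries from their group means had r of 0.011, 0.020 and 0.062 across genes. Pairs with different numbers had r from -0.062 to 0.040. A fit with the replicate number as a block called 0 of the 9 S1P genes, 0 of the wider list and 80 genes in all.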
